A study of Mus musculus with 4 samples.

Results

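Iron uptake, storage and export genes were examined in leukemic mouse bone marrow with and without the transcriptional repressor Hes1. The set was chosen by symbol, 10 genes in all: Tfrc, Slc11a1, Slc11a2, Slc40a1, Hmox1, Fth1, Ireb2, Aco1, Ncoa4 and Steap3. Of these, 9 have a probe set with a single gene symbol in the array annotation and were measured, among 19938 genes in all. Slc11a1 is not listed there and was not analysed here. The samples were total RNA from whole marrow of C57BL/6 mice whose acute myeloid leukemia was driven by the fusion oncogene MLL-AF9, which both genotypes carried. The series holds 2 arrays of marrow labelled wild type (Hes1+/+) and 2 of marrow labelled Hes1 null (Hes1-/-). The labels do not give age, how the oncogene was introduced or how Hes1 was removed, nor whether each array came from its own animal. The question behind the comparison is whether Notch signalling holds this leukemia back through Hes1.

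Cells take up iron bound to transferrin through the transferrin receptor, reduce it inside the endosome and carry it into the cytosol. Iron that is not used is stored in ferritin, from which a cargo receptor can release it, and surplus iron leaves through the exporter ferroportin. A pair of iron regulatory proteins reads the cytosolic iron level and controls several of these mRNAs by binding stem-loops in them. In marrow, erythroid precursors are the main consumers of iron, and macrophages return iron from old red cells by breaking down heme and exporting the iron.

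Levels are log2 of the deposited array intensity, and each difference subtracts the wild-type mean from the Hes1-null mean on that scale and is followed by its standard error (n = 2 arrays in each genotype). Array medians ran from 65.0 to 67.3 on the linear scale, and precision is limited by having so few arrays. The Hes1-null arrays resembled each other less than the wild-type arrays did, with r = 0.982 against 0.995 across genes and 683 against 109 genes at least 2-fold apart within the genotype. Xist lay at 7.25 on Hes1-null replicate 2 and at 11.7 or above on the other arrays. The 3 Y-linked genes read, Kdm5d, Uty and Eif2s3y, lay at 4.09 or below on every array, Hes1-null replicate 2 included. Hes1 itself lay at 5.59 and 5.79 in wild type and at 5.43 and 5.84 in Hes1-null marrow (-0.06 ± 0.18, adjusted p = 0.968 by limma). The labels do not say whether its probe set lies in the deleted part, so its level does not check the genotype labels.

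The ferroportin gene Slc40a1 and the heme oxygenase gene Hmox1 lay lowest in Hes1-null marrow relative to wild type, but no iron gene passed the test over all genes. Of the 9 measured genes, 0 had an adjusted p under 0.05 in limma's moderated test, where 0.145% of all genes did. At an unadjusted p under 0.05 there were 2, Slc40a1 and Hmox1, both lower in Hes1-null marrow (4.78% of all genes were lower by this rule, and 3.51% were higher). Hmox1 lay just over that threshold in 4 alternatives that kept all arrays. Its unadjusted p by limma was 0.0557 after a second quantile normalization, 0.0578 with array weights, and 0.0518 and 0.0573 with filters on dim genes. In the other alternatives that kept all arrays it was under 0.05, lowest at 0.00385 with the replicate number as a block. The median difference of the 9 genes was -0.29, against -0.02 over all genes, with 8 differences below 0 and 1, that of the ferritin heavy chain gene Fth1, above it. The genotypes did not overlap for 5 iron genes: both Hes1-null arrays lay below both wild-type arrays for Slc40a1, Hmox1, Ncoa4 and Aco1 (20.6% of all genes), and above them for Fth1 (17.4% of all genes).

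**Figure D1:**
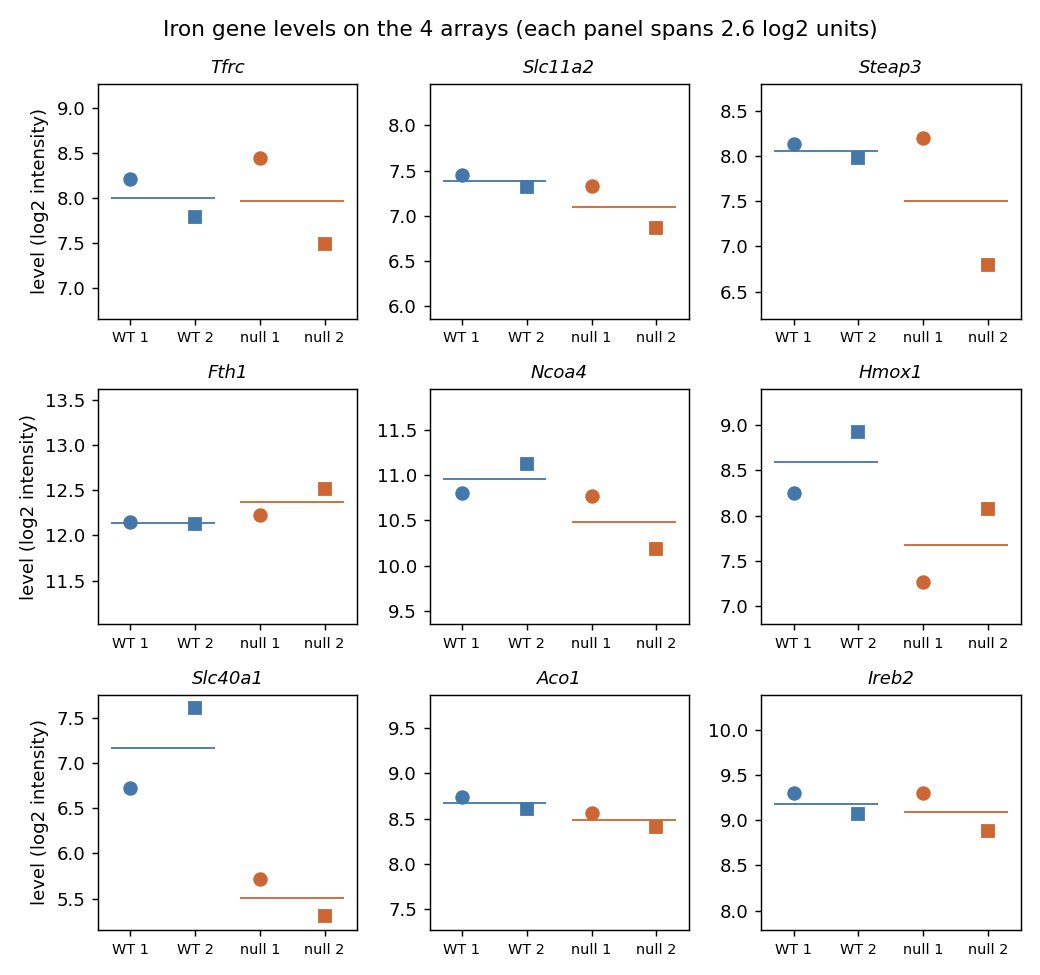
Level (log2 intensity) of the 9 measured iron genes on each array, with wild type in blue, Hes1-null in orange, circles for replicate 1, squares for replicate 2 and a line at each genotype's mean. Slc40a1 lay between 6.73 and 7.61 on the wild-type arrays and between 5.30 and 5.72 on the Hes1-null arrays, and Hes1-null replicate 2 was the lowest array for 7 of the 9 genes.

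Uptake genes are described first. Tfrc, which encodes the transferrin receptor, lay at 8.21 and 7.79 on wild-type replicates 1 and 2, and at 8.44 and 7.49 on Hes1-null replicates 1 and 2. Both the highest and the lowest array were therefore Hes1-null, and the wild-type arrays lay between them. The difference was -0.03 ± 0.35 (95% interval -0.92 to 0.85, adjusted p = 0.992 by limma), an interval that leaves room for a change of almost 2-fold in either direction.

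Slc11a2 encodes the divalent metal transporter DMT1, which moves ferrous iron out of the endosome. It lay at 7.45 and 7.32 in wild type and at 7.33 and 6.87 in Hes1-null marrow. Hes1-null replicate 2 stood below the other 3 arrays, which lay within a narrow range. The difference was -0.29 ± 0.21 (95% interval -0.81 to 0.23, adjusted p = 0.795 by limma), with -0.06 without Hes1-null replicate 2 but -0.52 when Hes1-null replicate 1 was left out.

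Steap3, the gene of the endosomal ferrireductase that prepares iron for DMT1, lay at 8.13 and 7.98 in wild type. It lay at 8.20 on Hes1-null replicate 1, the highest of the 4 arrays, and at 6.80 on Hes1-null replicate 2, the lowest. The Hes1-null arrays were thus 1.40 apart, a gap that 0.918% of all genes reached. With all arrays the difference was -0.55 ± 0.46 (95% interval -1.70 to 0.59, adjusted p = 0.831 by limma). Without Hes1-null replicate 1 it was -1.25, and without Hes1-null replicate 2 it was 0.15. The sign of Steap3 thus depended on which Hes1-null array was kept. Each of these fits holds 1 Hes1-null array, so none of its spread comes from Hes1-null arrays.

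Of the genes of iron storage and release, Fth1 encodes the ferritin heavy chain, the subunit that oxidises iron as it enters the ferritin shell. Its level was 12.15 and 12.12 in wild type and 12.22 and 12.51 in Hes1-null marrow. Both Hes1-null arrays lay above both wild-type arrays, the lower of them by little. The difference was 0.23 ± 0.12 (1.17-fold, 95% interval -0.07 to 0.53, adjusted p = 0.702 by limma), and it was 0.09 without Hes1-null replicate 2 but 0.38 when Hes1-null replicate 1 was left out.

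The ferritin light chain gene Ftl1, which is not in the set, was set beside Fth1 because the chains build one shell. Its single-symbol probe set lay at 12.53 and 12.58 in wild type and at 12.29 and 12.64 in Hes1-null marrow, with overlapping genotypes and a difference of -0.09 ± 0.13 (adjusted p = 0.916 by limma). Over all 5 probe sets that name Ftl1, of which 4 also name microRNA genes, differences ran from -0.09 to 0.01. Ferritin genes have many processed copies in the genome, and whether those add signal to these probe sets was not tested.

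Ncoa4 encodes the cargo receptor that delivers ferritin to the lysosome, where its iron is released. It lay at 10.80 and 11.12 in wild type and at 10.77 and 10.18 in Hes1-null marrow. The genotypes did not overlap, but Hes1-null replicate 1 lay just below wild-type replicate 1. The difference was -0.48 ± 0.24 (95% interval -1.08 to 0.11, adjusted p = 0.680 by limma), with -0.19 without Hes1-null replicate 2 but -0.78 when Hes1-null replicate 1 was left out. The other probe set of Ncoa4 gave -0.46 ± 0.24 and put the arrays in the same order.

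Hmox1, the inducible heme oxygenase that opens the heme ring and frees its iron, lay at 8.26 and 8.93 in wild type and at 7.27 and 8.08 in Hes1-null marrow. Both Hes1-null arrays were lower than both wild-type arrays, and the arrays within each genotype stood well apart. The difference was -0.92 ± 0.36 (1.89-fold lower, 95% interval -1.81 to -0.02), by limma with adjusted p = 0.595 (unadjusted p = 0.0461). Leaving out Hes1-null replicate 1 gave -0.51 and leaving out wild-type replicate 2 gave -0.58. Leaving out either of the other arrays gave larger differences, -1.25 for wild-type replicate 1 and -1.32 for Hes1-null replicate 2. The constitutive heme oxygenase gene Hmox2 differed by -0.08 ± 0.17 (adjusted p = 0.944 by limma).

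Slc40a1 encodes ferroportin, the iron exporter. Its level was 6.73 and 7.61 on the wild-type arrays and 5.72 and 5.30 on the Hes1-null arrays. Both Hes1-null values were dim, below the median gene level of 6.36. The lower wild-type array lay clearly above the higher Hes1-null array, and the wild-type arrays were themselves 0.88 apart. The difference was -1.66 ± 0.32 (3.15-fold lower, 95% interval -2.47 to -0.84), by limma with adjusted p = 0.217 (unadjusted p = 0.00296). A difference of this size or more was measured for 0.652% of all genes. Leaving out 1 array moved it between -2.09, without wild-type replicate 1, and -1.22, without wild-type replicate 2. Over the alternatives that kept all arrays and tested it, its adjusted p by limma ran from 0.127 to 0.343. Slc40a1 dropped out of the filter at the median of level.

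**Figure D2:**
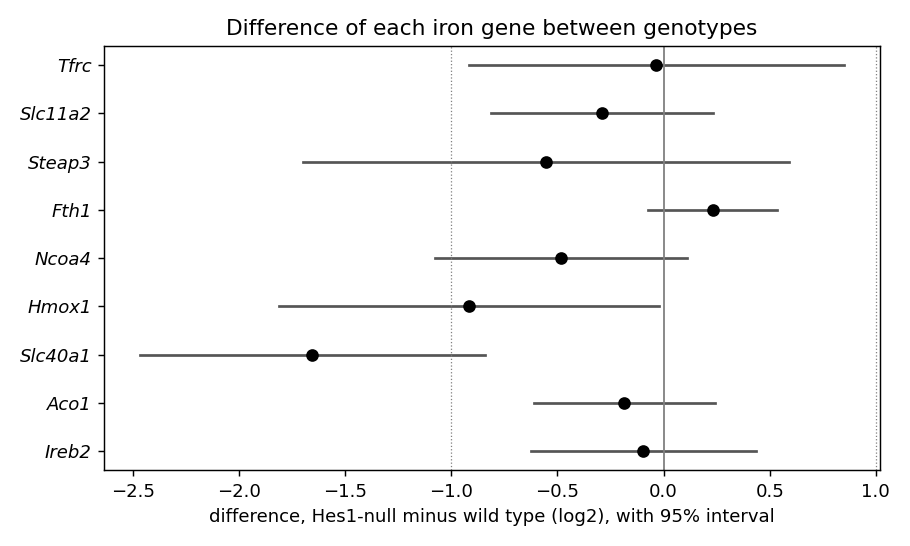
Difference between genotypes (log2, Hes1-null minus wild type) for each measured iron gene, with points for the estimate and lines for its 95% interval from limma; dotted lines mark 2-fold. The intervals of Slc40a1 (-2.47 to -0.84) and Hmox1 (-1.81 to -0.02) lay below 0, and those of the other 7 genes included 0.

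The genes of both iron regulatory proteins differed little between the genotypes. Aco1 encodes the one that serves as cytosolic aconitase when it holds an iron-sulfur cluster. It lay at 8.74 and 8.60 in wild type and at 8.56 and 8.40 in Hes1-null marrow, with the lower wild-type array only slightly above the higher Hes1-null array. The difference was -0.18 ± 0.17 (95% interval -0.61 to 0.24, adjusted p = 0.856 by limma).

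Ireb2, the gene of the other iron regulatory protein, which iron marks for degradation, lay at 9.29 and 9.07 in wild type. It lay at 9.30 and 8.88 in Hes1-null marrow, which again held both the highest and the lowest array. The difference was -0.09 ± 0.21 (95% interval -0.62 to 0.43, adjusted p = 0.951 by limma). For both genes the intervals exclude a 2-fold change, as do those of Slc11a2, Fth1 and Tfrc. These proteins are controlled after transcription, which mRNA levels do not show.

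Hes1-null replicate 2 was the lowest of the 4 arrays for 7 of the 9 iron genes, against 30.6% of all genes, and the exceptions were Hmox1 and Fth1. Of those 7, Tfrc, Slc11a2, Steap3, Aco1 and Ireb2 were also lower on wild-type replicate 2 than on wild-type replicate 1. Slc40a1 and Ncoa4 were higher there. The gap within Hes1-null exceeded the gap within wild type for 8 of the 9, all but Slc40a1, against 72.1% of all genes. The median difference of the 9 genes was -0.06 without Hes1-null replicate 2 but -0.51 when Hes1-null replicate 1 was left out. Tfrc, Ireb2 and Steap3 changed sign with that choice: without Hes1-null replicate 2 they differed by 0.44, 0.12 and 0.15, and without Hes1-null replicate 1 by -0.51, -0.31 and -1.25. Slc40a1, Hmox1, Slc11a2, Aco1 and Ncoa4 stayed below 0, and Fth1 above it, whichever array was left out.

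**Figure D3:**
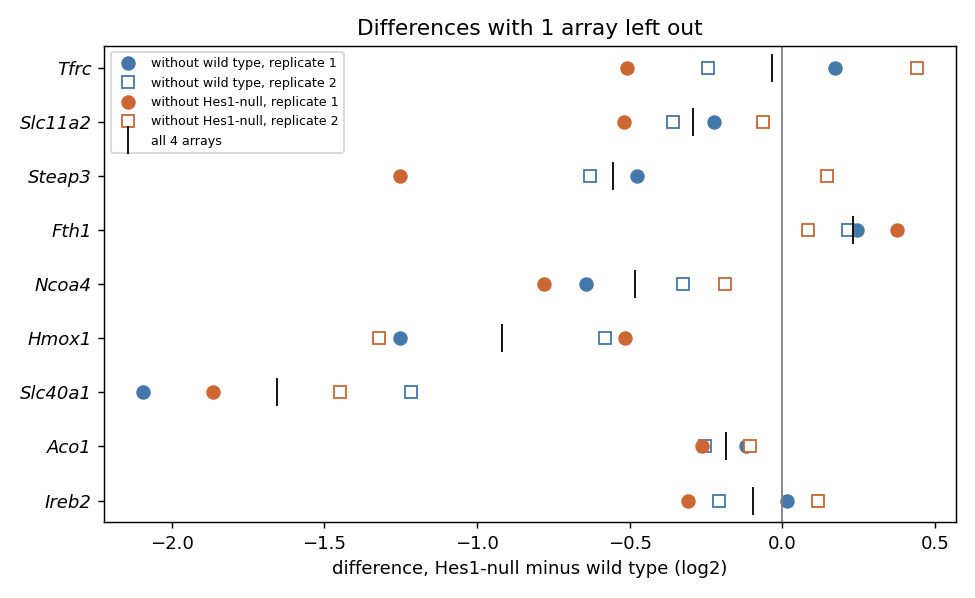
Difference between genotypes (log2, Hes1-null minus wild type) for each iron gene with all 4 arrays (black bar) and with each array left out in turn (coloured symbols). Slc40a1 lay between -2.09 and -1.22, while Tfrc ran from -0.51 to 0.44 and Steap3 from -1.25 to 0.15.

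Cell cycle genes showed the same low array. Of 12 measured, 11 were lowest on Hes1-null replicate 2, with a median difference of -0.27 and 0 called (0 also at an unadjusted p under 0.05, limma). Their summed intensity (linear scale) was 20916 and 20125 in wild type and 20384 and 16494 in Hes1-null marrow. Dividing cells are known to need iron and to carry more transferrin receptor. The part of cell division in the values of Tfrc and Steap3 was not tested.

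Erythroid markers were read because red cell precursors express Tfrc strongly. Of 15 measured of 20 listed, 0 were called, and 1, Alas2, had an unadjusted p under 0.05 (limma). Alas2, which encodes the erythroid enzyme that starts heme synthesis, lay at 6.88 and 6.87 in wild type and at 5.37 and 6.40 in Hes1-null marrow (-0.99 ± 0.34, adjusted p = 0.537 by limma). The summed intensity of the list was 952 and 837 in wild type and 637 and 895 in Hes1-null marrow. It was lowest on Hes1-null replicate 1, the array with the highest level of Tfrc. The part of erythroid cells in the values of Tfrc was not tested.

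Macrophage markers were read beside Slc40a1 and Hmox1, which iron-recycling macrophages express. Of 15 measured, both Hes1-null arrays lay below both wild-type arrays for 10 (20.6% of all genes) and above them for 1 (17.4% of all genes), with a median difference of -0.38. At an unadjusted p under 0.05 there were 5 lower and 0 higher (limma). Differences were below 0 for 11 and above it for 4: Cd68, Mertk (0.21 ± 0.38), Timd4 (0.11 ± 0.15) and C1qa (0.01 ± 0.14). Vcam1, an adhesion molecule of these macrophages, was the one called (8.70 and 8.86 against 6.09 and 6.23, -2.62 ± 0.17, adjusted p = 0.0242 by limma). Adgre1, which encodes the macrophage antigen F4/80, had a difference of -1.08 ± 0.26 (adjusted p = 0.329). Spic, the transcription factor gene of iron-recycling macrophages, was dim on all arrays (-0.43 ± 0.21, adjusted p = 0.676), and the hemoglobin scavenger receptor gene Cd163 differed by -0.02 ± 0.18 (adjusted p = 0.992). The summed intensity of the list was 4540 and 5001 in wild type and 4106 and 4112 in Hes1-null marrow. A large part of this sum is Cd68, the brightest gene of the list and the 1 that lay above on both Hes1-null arrays. Cd68 lay at 11.28 and 11.24 in wild type and at 11.50 and 11.48 in Hes1-null marrow (0.23 ± 0.10, adjusted p = 0.642 by limma).

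Marker lists named for other cell types are set against the same shares of all genes, 20.6% lower and 17.4% higher. Both Hes1-null arrays lay below both wild-type arrays for 8 of 10 monocyte genes and above them for 0, with 0 called, a median of -0.87 and summed intensities of 24903 and 22167 in wild type and 14082 and 18477 in Hes1-null marrow. Of 14 neutrophil granule genes, 10 lay below in this way and 2 above, with 1 called (Ltf), a median of -1.38 and sums of 40942 and 50075 against 24831 and 25550. Platelet markers lay below for 5 of 6 (median -0.61), stromal and endothelial markers for 5 of 8 (median -0.32) and T cell markers for 5 of 7 (median -0.34, with 1 above), and 0 of these were called. Of 6 B cell markers, 1 lay below and 1 above. On these arrays, which carry whole marrow, fewer cells of a type and less RNA per cell cannot be told apart. Whether leukemic or other cells gave the signal of these markers was not measured. The part of any of these cells in the values of Slc40a1 and Hmox1 was not tested.

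**Figure D4:**
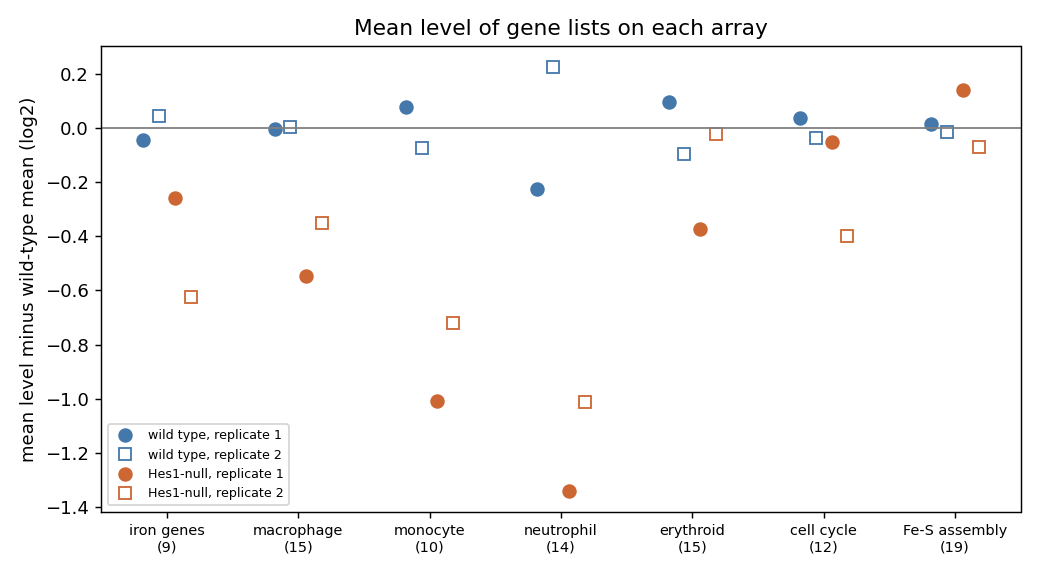
Mean level of each gene list on each array, relative to the mean of the wild-type arrays (log2), with the number of measured genes in brackets. The iron genes lay at -0.26 and -0.63 on Hes1-null replicates 1 and 2, the neutrophil list at -1.34 and -1.01 and the cell cycle list at -0.05 and -0.40.

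Immediate early genes, which handling of a sample can induce, lay higher on both Hes1-null arrays for 12 of 12 measured (17.4% of all genes), with 1 called, Jun, 10 at an unadjusted p under 0.05 (limma), a median difference of 1.57 and summed intensities of 4026 and 4581 in wild type and 11901 and 18993 in Hes1-null marrow. Whether handling bears on the iron genes was not tested.

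Slc40a1 had the smallest p of the set, and the genes whose array values lay closest to its pattern were listed. Likeness was the root mean square distance between values centred on each gene's mean over the 4 arrays. The closest were Samd9l (distance 0.094), the eosinophil and macrophage lectin gene Siglecf (0.105), Cd200r4 (0.145), As3mt (0.152) and Ace (0.153). Samd9l lay at 6.81 and 7.43 in wild type and at 5.66 and 5.25 in Hes1-null marrow. Siglecf differed by -1.61 ± 0.39 (adjusted p = 0.325 by limma). Over 4 arrays many genes can share such an order, and the likeness is a description.

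The wider iron pathway was read from lists of other uptake, storage, export, regulatory and iron-sulfur cluster genes, of which 75 of 80 were measured. Of the 75, 1 was called over all genes, and at an unadjusted p under 0.05 there were 4 higher and 5 lower, with 66 at neither (limma), against 3.51% and 4.78% of all genes. The counts of its separate lists are set against the same shares. Their median difference was -0.07, against -0.02 over all genes.

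Among 21 other uptake genes, 1 was higher and 1 lower at the unadjusted threshold. The lower one was Ltf, which encodes the iron-binding neutrophil granule protein lactoferrin and is also a neutrophil marker (8.87 and 9.38 against 6.23 and 6.48, -2.77 ± 0.23, adjusted p = 0.0398 by limma), the one gene called. Lcn2, whose product lipocalin 2 binds bacterial iron carriers, differed by -0.30 ± 0.22 (adjusted p = 0.795). Slc25a28, the gene of the mitochondrial iron importer mitoferrin 2, lay at 9.07 and 9.04 in wild type and at 9.41 and 9.84 in Hes1-null marrow (0.57 ± 0.20, adjusted p = 0.544). Its erythroid counterpart Slc25a37 had a difference of 0.22 ± 0.16 (adjusted p = 0.800). The transferrin gene Trf lay at 8.66 and 7.64 against 7.62 and 7.98, with overlapping genotypes.

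Among 10 other storage and heme breakdown genes, 1 was higher at the unadjusted threshold and 0 were lower or called. It was Blvrb, the gene of biliverdin reductase B, at 8.70 and 8.65 in wild type and 9.44 and 9.21 in Hes1-null marrow (0.65 ± 0.17, unadjusted p = 0.0109, adjusted p = 0.373 by limma). Blvra, its biliverdin reductase A counterpart, differed by -0.28 ± 0.17 (adjusted p = 0.749). The genes of the iron chaperones Pcbp1 and Pcbp2 differed by -0.13 ± 0.13 and 0.03 ± 0.08.

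Of 16 export genes and their controls, 1 was higher and 1 lower at the unadjusted threshold, with 0 called. Rnf217, the gene of a ubiquitin ligase that targets ferroportin, lay at 8.52 and 8.30 in wild type and at 10.24 and 9.48 in Hes1-null marrow. Both Hes1-null arrays were higher, by 1.45 ± 0.29 (unadjusted p = 0.00309, adjusted p = 0.220 by limma). Ferroportin protein was not measured, and any link between Rnf217 and Slc40a1 was not tested. The ferroxidase gene Cp was low on all arrays and differed by -0.37 ± 0.13 (adjusted p = 0.543). The heme exporter gene Flvcr1 differed by 0.26 ± 0.17 (adjusted p = 0.784).

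A further list joined regulators and targets of the iron regulatory proteins with Nfe2l2, Keap1, Bach1 and Hif1a, which were listed as other control genes. Of its 9 measured genes, 3 were lower at the unadjusted threshold, 0 were higher and 0 were called. They were Alas2, the hypoxia factor gene Epas1 (-0.57 ± 0.14, adjusted p = 0.336 by limma) and Nfe2l2. Nfe2l2 encodes NRF2, an activator of Hmox1, Fth1 and Slc40a1, and lay at 10.25 and 10.35 in wild type and at 9.98 and 9.46 in Hes1-null marrow (-0.58 ± 0.21, adjusted p = 0.556). The gene of their repressor Bach1 differed by 0.06 ± 0.18 (adjusted p = 0.965). Fbxl5, the gene of the ubiquitin ligase that degrades iron regulatory protein 2, lay at 7.95 and 8.11 against 7.92 and 9.19 (0.53 ± 0.42, adjusted p = 0.822), a difference set by Hes1-null replicate 2.

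Of 10 other measured NRF2 and BACH1 targets, 7 had a difference below 0 and 3 above it, with 0 called and a median of -0.08. At the unadjusted threshold 1 was higher (Blvrb) and 1 lower (the cystine transporter gene Slc7a11, -0.73 ± 0.19, adjusted p = 0.370 by limma). The part of NRF2 in the values of Hmox1 and Slc40a1 was not tested. Iron-sulfur cluster assembly genes had a median of 0.06 over 19 measured, with 1 higher at the unadjusted threshold, the co-chaperone gene Hscb (0.41 ± 0.15, adjusted p = 0.553), 0 lower and 0 called.

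Promoter sequence was available for 7 of the 10 genes, from RefSeq (GRCm38.p6), and not for Slc40a1, Hmox1 or Slc11a2. The 250 bases before each annotated start were searched on both strands for sites that HES1 is known to bind, since Hes1 is the gene removed, and for the element bound by NRF2 and BACH1. The class C site CACGCG was found before both annotated starts of Tfrc, and in 7.62% of all 32851 promoter entries. The N-box CACNAG was found before starts of Tfrc, Steap3, Aco1 and Ireb2, in 6 of 14 entries of these genes and in 36.7% of all entries. The element TGACNNNGC was found once, before a start of Ncoa4, and in 10.2% of all entries, and the E-box CACGTG, in 6.02% of all entries, in 0 of the 14. A stretch around 1 match of each gene is given here, 5′ to 3′ on the gene's strand with the match in capitals, to show where such letters lie beside the levels described.
Tfrc, chr16:32608767-32608796 (+), 117 bases before the start, class C site: cgcagccaatcgCACGCGctctcccgacac
Aco1, chr4:40143048-40143077 (+), 205 bases before the start, N-box: cccgtccgtggcCACGAGtctcttgttcta
Ireb2, chr9:54863506-54863535 (+), 237 bases before the start, N-box: tacttttgggccCACAAGaaagtaacggaa
Steap3, chr1:120271279-120271308 (-), 216 bases before the start, N-box: ggaagtcagtggCACCAGgcagaaccactc
Ncoa4, chr14:32165735-32165763 (+), 44 bases before the start, NRF2 and BACH1 element: aggcggggcgTGACCTGGCcggtagggta
Steap3 held 5 N-box matches, before 3 of its 4 annotated starts. The class C site of Tfrc stands beside a difference of -0.03 ± 0.35, and the N-boxes of Steap3, Aco1 and Ireb2 beside -0.55 ± 0.46, -0.18 ± 0.17 and -0.09 ± 0.21, and the NRF2 and BACH1 element of Ncoa4 beside -0.48 ± 0.24. A match is a description of the letters and not evidence of binding.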

How the data were processed

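Each sample was whole-marrow RNA on 1 MoGene array from Affymetrix. The deposited intensity values are on a linear scale. The submitters' processing notes name RMA and the Affymetrix Expression Console software. Versions are not given in the sources used here. Log2 was taken with 0 added, and 0 sample columns were left out. A gene is its single-symbol probe set of highest mean (21789 of 35556 probe sets have 1 symbol, 1621 several, 12146 none listed), which gave 19938 genes with no filter on dim ones.

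The test across genes was limma 3.58.1 under R 4.3.3 (lmFit, eBayes with intensity trend, two-sided), genotype the only term, Benjamini-Hochberg over all genes, threshold 0.05. The test was tried on simulated data, drawn with the same spread in both genotypes. The real arrays differ from that, with a median gap of 0.25 within Hes1-null and 0.11 within wild type. The trial therefore does not show how the test performs on these arrays. The members and lists were chosen with earlier results of these data known, so nothing was adjusted over a list alone. All members are named, with up to 5 genes of each other iron list at an unadjusted p under 0.05, and markers of cells are given by counts. Markers and genes named beyond this for their role were chosen after their values were seen. P-values measure the spread between these samples, which may be technical.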

Additional observations from a re-analysis of the deposited data

How the results depend on the processing

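With 2 arrays per genotype, 1 array can set a value. The number of genes called over all genes (29) was 89 with the replicate number as a block, 46 after a second quantile normalization, 45 with array weights, 17 among genes above the 25th percentile of level, 5 among those above its median, and 6 to 999 with 1 array left out (the lowest without wild-type replicate 2, the highest without Hes1-null replicate 1, and 15 when Hes1-null replicate 2 was left out). The number of iron genes called stayed at 0 in every alternative that kept all arrays. Steap3 passed only without Hes1-null replicate 1. Fits with 1 array left out keep 1 array of a genotype, so their spread comes from the other genotype alone and their calls are not weighed. The number whose genotypes do not overlap (5) was 4 after centring the arrays, 6 after quantile normalization, 4 of 8 with the median filter and 5 to 9 with 1 array left out, where a lone array overlaps less easily. Differences changed sign only among the fits with 1 array left out: Tfrc ran from -0.51 to 0.44, Ireb2 from -0.31 to 0.12 and Steap3 from -1.25 to 0.15. Of 126 differences recomputed, 120 kept their sign and their side of the threshold, 5 changed sign and 1 became called. With the replicate block, Slc40a1 had an adjusted p of 0.127 and Hmox1 of 0.204 by limma. The series text speaks of pairs of marrows, but what a replicate number shares is not labelled, and same-numbered arrays deviated together only weakly (r = 0.05 across genes). Among the iron genes, replicate 2 lay below replicate 1 in both genotypes for Tfrc, Slc11a2, Steap3, Aco1 and Ireb2, and above it for Hmox1. For Slc40a1, Ncoa4 and Fth1 the replicates moved in opposite directions. With the block the standard error was 0.20 against 0.36 for Hmox1 and 0.23 against 0.35 for Tfrc, but 0.20 against 0.17 for Aco1. The other probe set of Ncoa4 was an alternative chosen after seeing the data. No detection calls were used, so signal over background is unknown for dim genes such as Spic and Cp, and for Slc40a1 on the Hes1-null arrays.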
